A study of Mus musculus with 6 samples.

Results

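The expression of 36 genes of G2, mitosis and the spindle was followed in mouse SC4 cells, a Schwann cell line isolated from an Nf2-null schwannoma, a tumour of the nerve sheath. The genes were chosen by name as working parts of cell division, but with earlier results of these data known. Of these genes 36 of 36 were found among the 23366 genes listed. Every group shared the Nf2-null background, growth in DMEM with 10% serum, and lipofection with siRNA. One group of 3 libraries received Control siRNA and the other group of 3 received YAP Smartpool siRNA, a pool against the transcriptional co-activator YAP, and RNA was taken 48 hours later. The study asked which genes depend on YAP in these cells. SC4 is 1 cell line, and the labels name no separate cultures behind the libraries of a group. The p-values therefore cover only library-to-library spread, which may be technical.

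Cells prepare for division in G2, when cyclin A and cyclin B accumulate and switch on the kinase CDK1. Kinesin motors and other microtubule proteins then build the spindle, kinetochores tie chromosomes to it, and checkpoint kinases hold back the anaphase-promoting complex until attachment is complete. Transcripts of this machinery rise and fall together through the cycle. In bulk RNA, a larger share of cells in G2 and mitosis and more RNA per such cell cannot be told apart. Promoters of many such genes carry CCAAT boxes, bound by the factor NF-Y, and a cell cycle genes homology region (CHR), bound by the LIN54 subunit of MuvB complexes that contain B-MYB and FOXM1 or RB-family proteins.

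The promoters of the genes are shown first, because the genes share these elements and were not chosen for them. Promoter windows from RefSeq (build GRCm38.p6), from 250 bases before to 50 bases after the start site, were at hand for 31 of the 36 genes. Both strands were searched for CCAAT and for the CHR letters TTTGAA or TTCGAA. Below, 150 bases before to 30 bases after the start site are printed 5′ to 3′ on the gene's strand, with matches in capitals. A match on the other strand reads ATTGG or TTCAAA. The build of the deposited values is mm9, so these positions do not apply to it.
Cenpf, which had the largest fold change of the 36 (chr1:189688057-189688236, minus strand): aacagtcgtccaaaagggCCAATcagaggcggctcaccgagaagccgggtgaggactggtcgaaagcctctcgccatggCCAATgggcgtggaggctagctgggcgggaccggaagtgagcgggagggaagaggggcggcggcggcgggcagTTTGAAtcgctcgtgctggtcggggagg
Ccnb2, the largest of the cyclin genes (chr9:70421525-70421704, minus strand): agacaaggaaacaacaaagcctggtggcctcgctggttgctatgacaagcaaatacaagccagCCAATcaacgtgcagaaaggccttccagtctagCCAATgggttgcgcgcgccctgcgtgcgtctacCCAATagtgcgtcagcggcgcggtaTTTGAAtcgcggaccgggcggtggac
Aspm, whose groups did not overlap (chr1:139454623-139454802, plus strand): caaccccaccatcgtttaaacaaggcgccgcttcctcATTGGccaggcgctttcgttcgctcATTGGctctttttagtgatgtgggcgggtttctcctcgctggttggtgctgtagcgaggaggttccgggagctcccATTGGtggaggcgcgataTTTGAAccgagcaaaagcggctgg
Kif11, the largest of the kinesin genes (chr19:37376232-37376411, plus strand): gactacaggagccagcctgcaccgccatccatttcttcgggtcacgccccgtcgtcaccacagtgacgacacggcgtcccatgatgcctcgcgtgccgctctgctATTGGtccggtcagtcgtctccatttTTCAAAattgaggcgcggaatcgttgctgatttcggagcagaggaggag
Kif23, the smallest of the kinesin genes (chr9:61946770-61946949, minus strand): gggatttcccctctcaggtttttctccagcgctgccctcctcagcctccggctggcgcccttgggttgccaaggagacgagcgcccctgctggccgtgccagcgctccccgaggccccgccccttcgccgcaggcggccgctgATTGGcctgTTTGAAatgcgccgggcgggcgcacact
Nusap1, the gene with the second largest fold change, with neither motif (chr2:119618148-119618327, plus strand): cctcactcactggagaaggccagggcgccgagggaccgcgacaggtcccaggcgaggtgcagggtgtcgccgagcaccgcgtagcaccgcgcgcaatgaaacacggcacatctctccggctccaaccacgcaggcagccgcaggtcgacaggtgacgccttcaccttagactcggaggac

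The CHR letters were common in the mitotic promoters. TTTGAA or TTCGAA stood in the windows of 26 of 31 genes (83.9%), against 21.7% of all 27025 genes with a promoter window of the same length. CCAAT stood in 24 of 31 (77.4%, against 41.1%), and both were present in 22 of 31 (71.0%, against 8.61%). Among 123 other G2 and mitosis genes with a window, CHR letters stood in 44.7%, CCAAT in 61.0% and both in 33.3%. Among 33 S phase genes these shares were 18.2%, 60.6% and 12.1%. Of 37 matches to the CHR letters 25 lay within 50 bases of the start site, with a median of −5.0 and a range from −234 to 41. CCAAT matches lay mostly upstream, at a median of −86.5 bases. Positions over all promoters were not counted. The E2F letters TTTGGCGC or TTTCGCGC stood in 2 of the 31 windows (6.45%, against 0.929% of all genes), and in 11 of 33 windows (33.3%) of an S phase list. CATTCC, the core letters bound by TEAD factors, the DNA-binding partners of YAP, stood in 2 of 31 (6.45%, against 16.6%), those of Ube2c and Nusap1. In these windows 0 matches of different motifs overlapped, and a match is not evidence of binding.

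**Figure D1:**
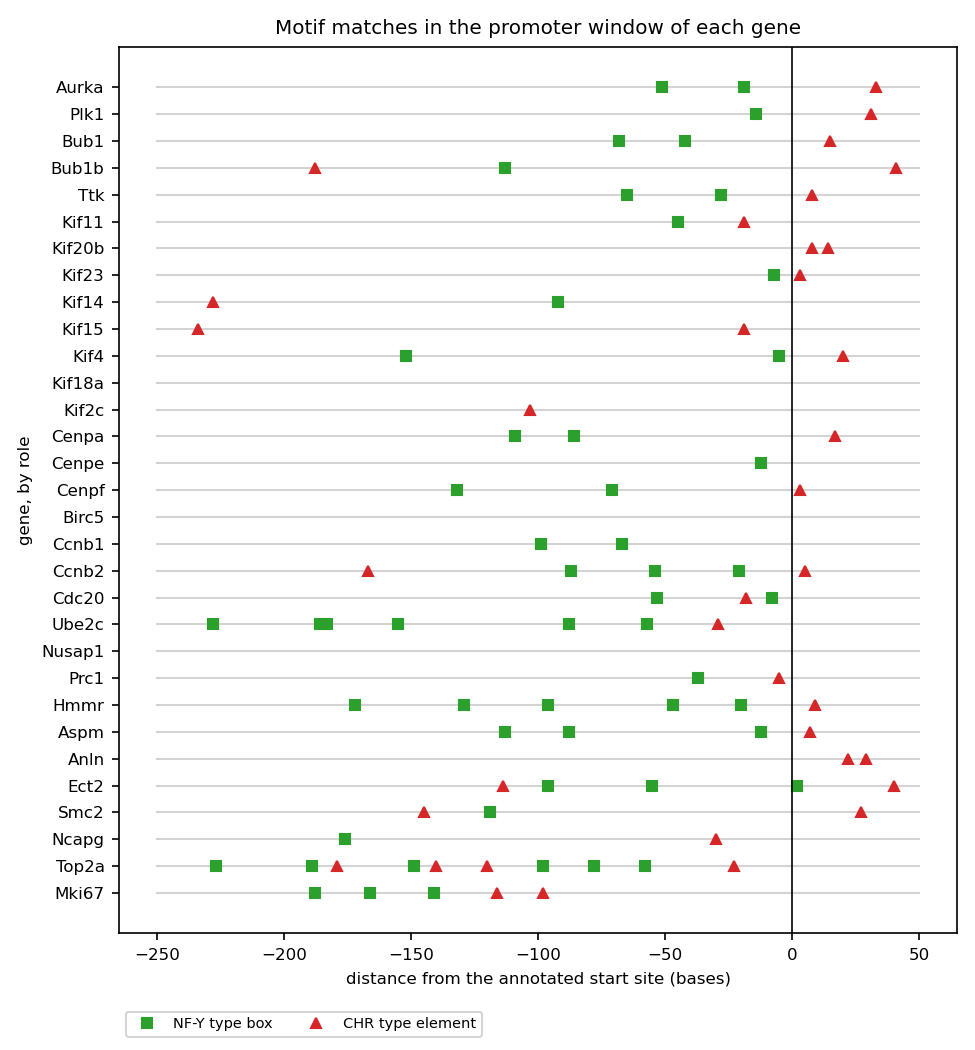
Motif matches in the promoter windows of 31 mitotic genes, one line per gene, with distance from the annotated start site in bases on the horizontal axis. Squares are matches to the NF-Y type box and triangles are matches to the CHR type element. Most triangles lie near the start site, some lie far upstream, and the lines of Kif18a, Birc5 and Nusap1 are empty.

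Total reads in genes ranged from 18025132 to 60078880 per library, and a mitotic gene was represented by at least 181 reads in every library. Yap1 had 4749.6, 5732 and 4751 normalized counts in control replicates 1, 2 and 3, and 936, 571 and 475 after YAP siRNA. The groups did not overlap (log2 fold change −3.00, SE 0.184, limma adjusted p = 0.118 unpaired and 4.5e-04 paired, which means with the replicate number as a block). Normalized counts are read counts per gene that the authors scaled by a size factor, and a log2 fold change is a difference of mean log2(normalized count + 1), YAP siRNA minus control. Replicate 1 stood apart from replicates 2 and 3 in both groups, on a first principal component holding 63.5% of the variance, against 23.1% on the component that separated the siRNAs. Of 14 Schwann lineage genes, Mag was at 0 in every library, and Sox10 had at most 15.6 normalized counts, whereas Mbp had at least 1077. Some defining genes of the labelled lineage were thus absent or near 0 and others were not. The 14 genes summed to 8901, 10835 and 11649 in control replicates 1, 2 and 3, and to 8775, 17159 and 16732 after YAP siRNA, higher in pairs 2 and 3 and not in pair 1 (paired limma called 2 of 10 tested genes higher and 1 lower). The summed level of 10 fibroblast and mesenchymal markers ranged from 386724 to 660720 in the controls and from 324493 to 519083 after YAP siRNA, and was lower after YAP siRNA in each pair (paired limma called 2 of 9 tested genes higher and 4 lower). Macrophage markers summed to at most 341 and endothelial markers to at most 271, and the part of any of these in the results below was not tested.

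Most of the 36 genes lay higher after YAP siRNA than in the same-numbered control. The unpaired fit was planned as the main test, and the paired fit as an alternative. Without pairing, limma at an adjusted p under 0.05 called 0 of the 36, as it called 0.0% of all genes. At an unadjusted p under 0.05, 4 of the 36 were higher (Kif20b, Cenpf, Nusap1 and Aspm), against 5.88% of all genes higher and 12.2% in either direction, and edgeR also called 0 of the 36 unpaired. With the replicate number as a block, 23 were higher and 0 lower, where 8.32% of all 12820 genes tested were higher and 8.96% lower. These 23 are the genes said below to have risen, a word that therefore rests on the pairing and not on the main test. The median log2 fold change of the 36 was 0.44, against 0.0094 for all genes tested, and 35 of 36 were above 0, against 51.0%. None reached 2-fold in the fit, although single pairs of Cenpf, Nusap1 and Aspm did.

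The size of the call set depended on which replicates were kept and on how variance was modelled. Without replicate 1 of both groups, 27 of 36 were higher unpaired (background 15.3% higher, 16.7% lower) and 30 paired (22.0%, 21.8%), and all 23 genes were among the 30. Leaving out replicate 2 of both groups left Cenpf, Kif11 and Aspm (3 of 36, background 1.06% higher and 1.5% lower), and leaving out replicate 3 left 11 (background 4.01% higher, 4.51% lower): Kif11, Kif20b, Kif4, Kif2c, Cenpf, Ccna2, Ccnb2, Tpx2, Nusap1, Aspm and Smc4. With 2 pairs left, p-values rest largely on variance borrowed from other genes. In limma without a mean-variance trend, the blocked fit called 0 of the 36 (background 0.0936% higher and 0.14% lower). Without control replicate 1 alone, the unpaired fit called 3 (background 1.49% higher, 2.37% lower), and without YAP siRNA replicate 1 alone it called 0 (0.0234% and 0.0389%).

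Other paired settings gave 22 to 26 genes higher and 0 lower. DESeq2 called 25 (9.22% of all genes higher, 10.2% lower) and edgeR 26 (9.28%, 10.1%). Scaling to 1 total gave 26 (9.56%, 8.01%) and quantile normalization 25 (9.1%, 9.22%). Pseudocounts of 0.5 and 10 both gave 23 (8.21%, 8.87% and 8.36%, 9.07%). No filter gave 22 (5.71%, 6.49%) and a minimum mean of 50 gave 23 (9.35%, 9.83%).

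**Figure D2:**
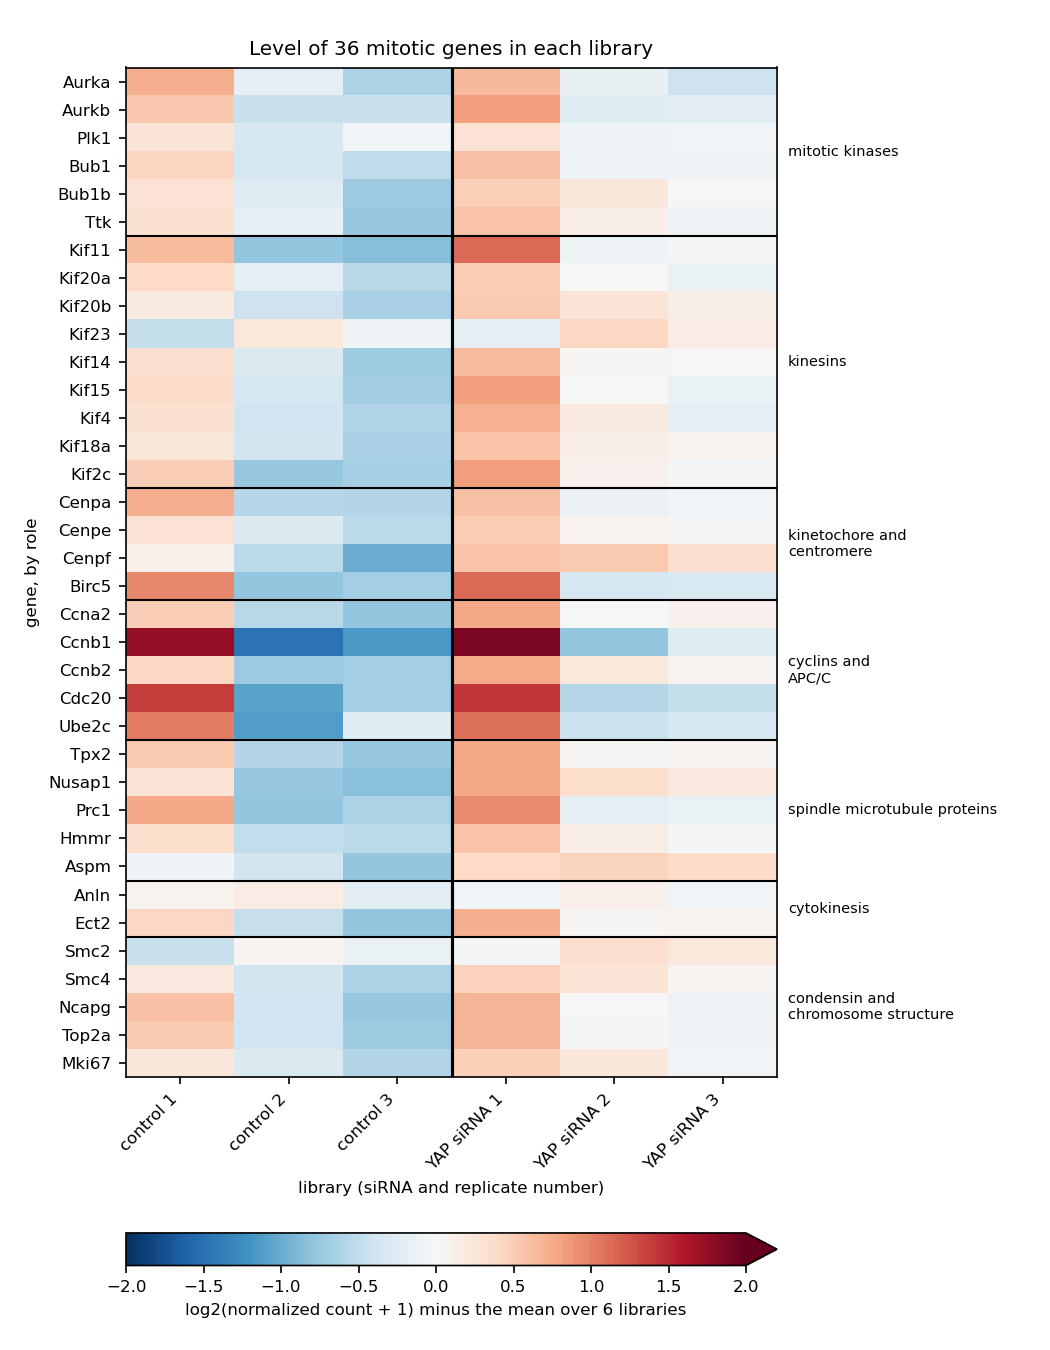
Level of each of the 36 genes in each of the 6 libraries, as log2(normalized count + 1) minus the gene's mean over the libraries (colour). Genes are grouped by role; most rows are highest in YAP siRNA replicate 1 and lowest in control replicates 2 and 3, and Ccnb1, Cdc20, Ube2c and Birc5 differ most between replicate 1 and the others.

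Among the mitotic kinase genes 2 of 6 rose, the checkpoint genes Bub1b and Ttk. Bub1b encodes BUBR1, part of the complex that inhibits the anaphase-promoting complex. Its normalized counts were 4757, 3259 and 2346 in control replicates 1, 2 and 3, and 5409, 4591 and 3914 after YAP siRNA. The groups overlapped, because control replicate 1 lay above YAP siRNA replicates 2 and 3, but each YAP siRNA library was above the control of its own number. The log2 fold change was 0.47 (SE 0.115, paired limma adjusted p = 0.0267, unpaired 0.563). Ttk, which encodes the checkpoint kinase MPS1, rose by 0.42 on the log2 scale. Bub1, the kinase that recruits shugoshin and also checkpoint proteins, had a log2 fold change of 0.27 (95% interval 0.05 to 0.50, paired limma adjusted p = 0.0901).

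The Aurora and Polo kinase genes did not pass. Plk1, a kinase needed from mitotic entry to cytokinesis, had 1602, 1069 and 1292 normalized counts in the controls and 1643, 1243 and 1288 after YAP siRNA. These values interleave, with a log2 fold change of 0.084 (95% interval −0.16 to 0.32, paired limma adjusted p = 0.615). Aurka, the centrosomal Aurora kinase gene, had 4174, 2221 and 1627 in the controls and 3949, 2273 and 1889.8 after YAP siRNA. Its replicate 1 values were the highest in both groups and the order within pairs was mixed, at a log2 fold change of 0.056 (95% interval −0.17 to 0.28). Aurkb, the kinase of the chromosomal passenger complex, had 2169.9, 1095 and 1095 in the controls and 2639, 1257 and 1295 after YAP siRNA. Each pair moved by a similar ratio, 1.22, 1.15 and 1.18 for replicates 1, 2 and 3, but the log2 fold change of 0.24 did not pass (paired limma adjusted p = 0.123).

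Of the 9 kinesin genes 7 rose, and 9 of 9 were higher in every pair, against 27.4% of all genes. Kif11 encodes the motor Eg5, which pushes spindle poles apart. Its normalized counts were 6895, 2607 and 2475 in the controls and 9776, 4188 and 4370.3 after YAP siRNA. Each YAP siRNA library was above its own control by 1.42, 1.61 and 1.77-fold, while control replicate 1 exceeded YAP siRNA replicates 2 and 3. The log2 fold change was 0.67 (SE 0.0943, paired limma adjusted p = 0.00417, unpaired 0.673). Kif2c, the microtubule-depolymerizing motor MCAK, rose by 0.61 on the log2 scale. Kif20b, a motor of late cytokinesis, rose by 0.59, and Kif18a, which limits chromosome oscillation at the metaphase plate, by 0.52 on the log2 scale. The chromokinesin gene Kif4 rose by 0.46, Kif15, a motor that assists Eg5, by 0.45 and Kif14, a motor of cytokinesis, by 0.43 on the log2 scale.

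The 2 kinesin genes that did not pass encode motors of the central spindle, MKLP1 and MKLP2. Kif23 (MKLP1) had 1552, 2513 and 2032 normalized counts in the controls and 1879, 2880.2 and 2387 after YAP siRNA. It was lowest in replicate 1 of both groups, the reverse of most kinesin genes, and higher in each pair by 1.21, 1.15 and 1.17-fold. Its log2 fold change was 0.23 (SE 0.0919, 95% interval 0.02 to 0.44, paired limma adjusted p = 0.111). Kif20a (MKLP2) had a log2 fold change of 0.24 (paired limma adjusted p = 0.122).

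Kinetochore and centromere genes ranged widely, and 2 of 4 rose. Cenpf, which encodes a large protein of the outer kinetochore, had 11202, 7153 and 5202 normalized counts in the controls and 15357, 14966 and 13144 after YAP siRNA. All YAP siRNA libraries lay above all controls, which held for 2 of the 36 genes, Cenpf and Aspm (5.56%), and for 9.47% of all genes. The pairs differed by 1.37, 2.09 and 2.53-fold, and the log2 fold change was 0.95 (SE 0.149, paired limma adjusted p = 0.00602, unpaired 0.262). Cenpe, a kinesin-like motor that moves chromosomes to the metaphase plate, rose by 0.37 on the log2 scale. Cenpa, the histone H3 variant that marks centromeres, had 2769, 1124 and 1110.0 in the controls and 2504, 1540.0 and 1603 after YAP siRNA. It was lower after YAP siRNA in pair 1 and higher in the other two, with a log2 fold change of 0.28 (95% interval −0.04 to 0.60, paired limma adjusted p = 0.198). Birc5, which encodes the passenger protein survivin, had a log2 fold change of 0.33 and missed the threshold (paired limma adjusted p = 0.0566).

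Cyclin genes and genes of the anaphase-promoting complex differed most between replicates, and 2 of 5 rose. Ccna2, the cyclin A2 gene, rose by 0.56 on the log2 scale. Ccnb2, the cyclin B2 gene, had 727, 329 and 340.0 normalized counts in the controls and 914, 637 and 568 after YAP siRNA. Replicates 2 and 3 of YAP siRNA lay well above those of the control but below control replicate 1, with a log2 fold change of 0.67 (SE 0.154, paired limma adjusted p = 0.022, unpaired 0.531). Ccnb1, the cyclin B1 gene, had 1334, 141 and 177 in the controls and 1463, 229 and 333 after YAP siRNA. Replicate 1 was 8.38 times the mean of replicates 2 and 3 in the controls and 5.21 times in YAP siRNA, far more than any pair differed by siRNA (1.10, 1.62 and 1.88-fold). Its log2 fold change of 0.58 missed the threshold (SE 0.179, paired limma adjusted p = 0.0585). Of its 31-base sequences, 46.9% also occur in annotated pseudogenes, so its counts are uncertain.

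The remaining pair of this group acts on the anaphase-promoting complex. Ube2c, its ubiquitin-conjugating enzyme, had 2246, 509.8 and 928 normalized counts in the controls and 2363, 819 and 867 after YAP siRNA. The order within pairs was mixed, and the log2 fold change was 0.22 (95% interval −0.14 to 0.57, paired limma adjusted p = 0.355). Cdc20, the activator of the complex, had a log2 fold change of 0.25 (paired limma adjusted p = 0.167). It shares 27.4% of its 31-base sequences with pseudogenes, and Plk1 15.2%; no other of the 36 exceeded 10%. Among the rest, genes that shared over 10% with another annotated gene were Kif20a, Kif4, Ccna2, Prc1 and Ncapg, besides Ube2c, and of the 27 that shared 10% or less with either, 20 rose.

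All 5 genes of spindle microtubule proteins rose. Nusap1, which bundles microtubules near chromosomes, had 1886, 925 and 874 normalized counts in the controls and 2631, 1992 and 1790.3 after YAP siRNA. Only control replicate 1 reached into the YAP siRNA range, and the log2 fold change was 0.87 (SE 0.136, paired limma adjusted p = 0.00594, unpaired 0.361). Without replicate 2 of both groups its adjusted p was 0.0581. Aspm, a spindle pole protein, had 3690.4, 3024 and 2267 in the controls and 5131, 5297 and 5027 after YAP siRNA, so that the treated libraries were close together and the groups did not overlap. Aspm rose by 0.81 on the log2 scale, and it was the 1 gene of the 36 that DESeq2 called without the block (adjusted p = 0.0185, background 2.57% higher and 3.11% lower).

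Prc1, which crosslinks microtubules of the central spindle, had the smallest fold change of the spindle group. It had 6838, 2369.7 and 2620.4 normalized counts in the controls and 7772, 3588 and 3695 after YAP siRNA, a difference that each pair showed but that was smaller than the gap between replicate 1 and the rest. The log2 fold change was 0.43 (SE 0.103, paired limma adjusted p = 0.0268). Tpx2, which activates Aurora A and nucleates spindle microtubules, rose by 0.55 and Hmmr, a microtubule-associated protein of the spindle pole, by 0.45 on the log2 scale.

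The cytokinesis genes split. Ect2, the exchange factor that activates RhoA at the division site, had 7502, 4109 and 3301 normalized counts in the controls and 9352, 5752 and 5953 after YAP siRNA. Each pair was higher, by 1.25, 1.40 and 1.80-fold (log2 fold change 0.55, SE 0.112, paired limma adjusted p = 0.0143). Anln, the scaffold of the contractile ring, had 8479, 8976 and 6915 in the controls and 7788, 8695 and 7766 after YAP siRNA. The groups were interleaved, and the 95% interval of its log2 fold change was −0.21 to 0.21 (paired limma adjusted p = 0.998), with an estimate whose sign differed between scalings.

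Condensin and chromosome genes were among the most abundant, and 4 of 5 rose. Smc4, a core condensin subunit, had 12542, 8538 and 7111 normalized counts in the controls and 15133, 13224 and 11376 after YAP siRNA. Control replicate 1 overlapped the YAP siRNA range and the other controls did not (log2 fold change 0.53, SE 0.101, paired limma adjusted p = 0.0115). Its partner Smc2 had 4218, 5925 and 5219 in the controls and 5608, 7268 and 6662 after YAP siRNA. Like Kif23 it was lowest in replicate 1 of both groups, yet the pairs differed by 1.33, 1.23 and 1.28-fold, and it rose by 0.35 on the log2 scale. Mki67, the gene of the proliferation marker Ki-67, had 19536, 13704 and 11203 in the controls and 23314, 19669 and 16246 after YAP siRNA. It was higher in each pair, and its log2 fold change was 0.44 (SE 0.0906, paired limma adjusted p = 0.0155, unpaired 0.542). Top2a, which encodes the topoisomerase that untangles sister chromatids, rose by 0.39 on the log2 scale, and the condensin I gene Ncapg missed the threshold at 0.38 (paired limma adjusted p = 0.0567). Per kilobase of the longest annotated coding transcript, control levels ran from 150 normalized counts for Kif14 to 3554 for Top2a, with Ccna2 at 2393 and Smc4 at 2177 next below.

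**Figure D3:**
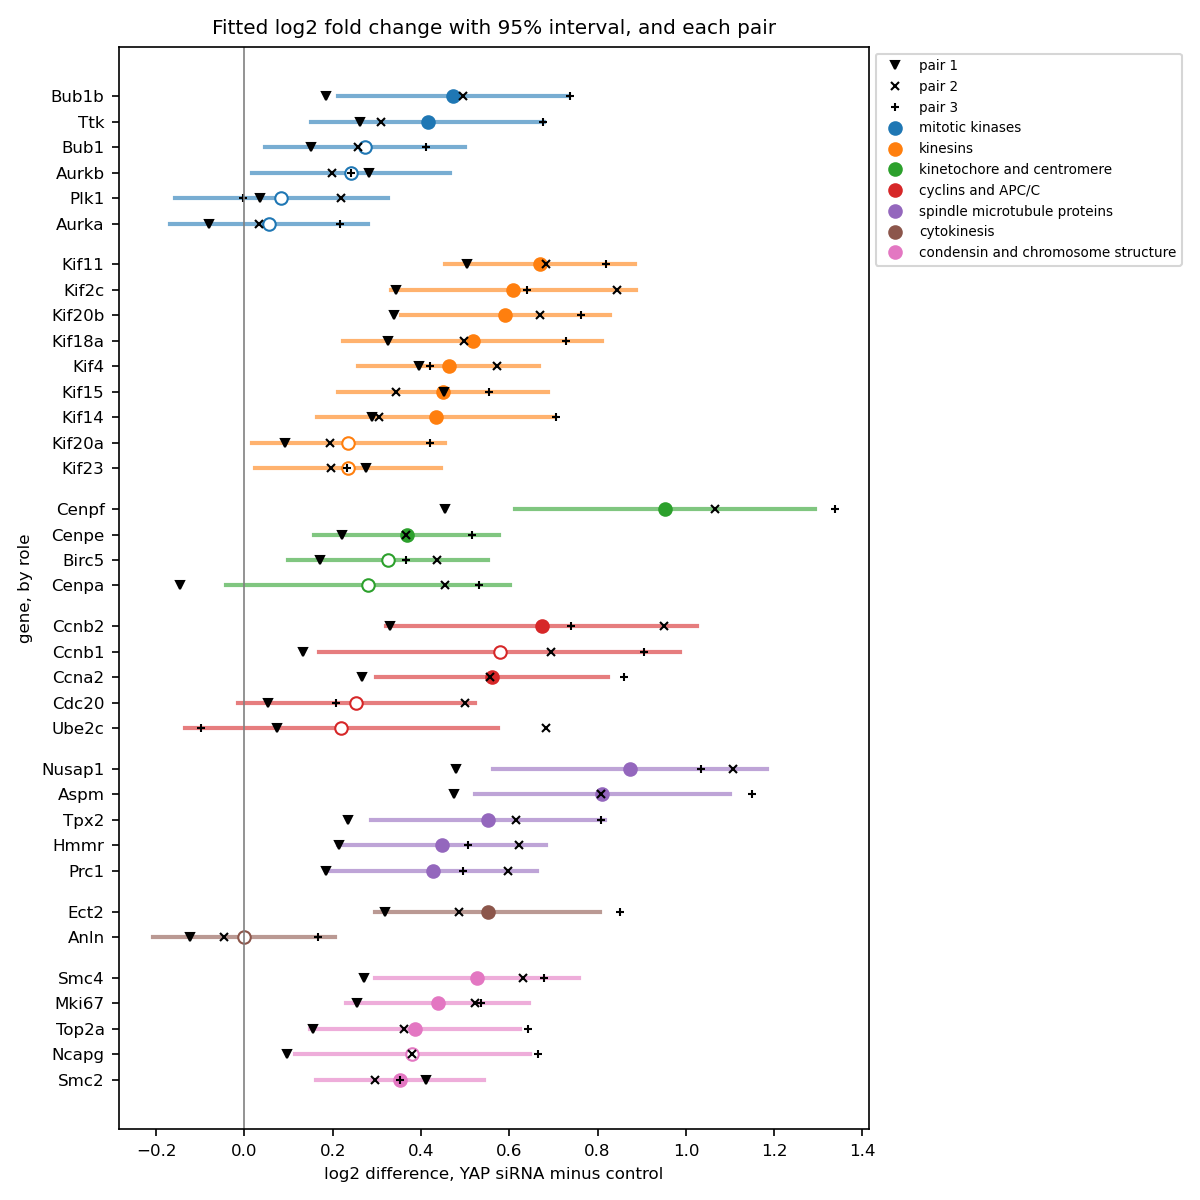
Log2 difference (YAP siRNA minus control) for each of the 36 genes, by role. Circles are the fitted log2 fold change, filled where it passed with the block, lines are the 95% interval, and small black marks are the 3 pairs; all kinesin and spindle genes lie above 0, and Anln, Aurka and Plk1 lie closest to it.

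The 3 pairs of libraries did not contribute equally. Median log2 differences of the 36 genes were 0.26, 0.50 and 0.60 for replicates 1, 2 and 3, against 3.0e-04, 0.017 and −0.014 for all genes tested. In these pairs 33, 35 and 34 of the 36 were higher (50.1%, 51.6% and 48.6% of all genes), and 31 were higher in every pair (27.4% of all genes). Pair 1 had the smallest difference for 30 of the 36, and the share of all genes was not counted. The spread over all genes tested was also narrowest in pair 1. From 5% to 95% of genes it ran from −0.67 to 0.81, against −1.09 to 0.92 in pair 2 and −1.31 to 0.97 in pair 3. Yap1 itself was at 0.197, 0.0997 and 0.0999 of its control in these pairs, and any link to the 36 genes was not tested. With 1 library per siRNA and number, the difference between pairs has no test.

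**Figure D4:**
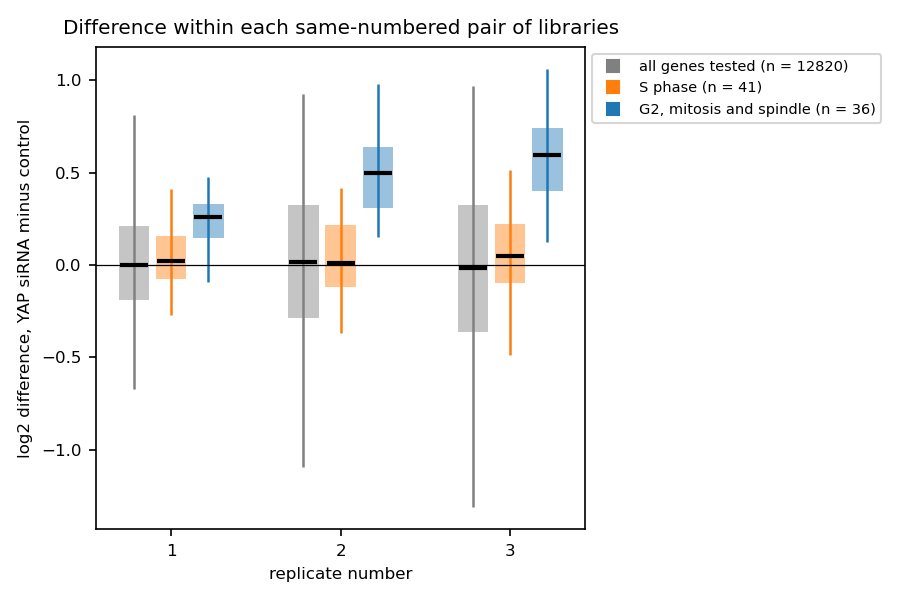
Log2 difference between YAP siRNA and control within each same-numbered pair of libraries, for all genes tested, an S phase list and the 36 genes. Boxes span the middle 50% of genes, lines 5% to 95%, and black dashes are medians; the medians of the 36 genes, 0.26, 0.50 and 0.60, lie above those of the other sets in each pair.

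Replicate 1 was also the library in which these genes were highest, whatever the siRNA. It held the highest value of both groups for 32 of the 36 genes, and of the control group for 33 (44.7% of all genes). In the median gene it was 1.84 times the mean of replicates 2 and 3 in the controls and 1.56 times in YAP siRNA. The factor was largest for Ccnb1, then Cdc20 (4.73 and 3.87), Birc5 (3.20 and 2.73) and Ube2c (3.12 and 2.80), none of which passed. It was below 1 in both groups for Kif23 and Smc2. The gap between replicate 1 and the others entered the error of the unpaired fit. The block removes only the part of that gap shared by both siRNAs.

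**Figure D5:**
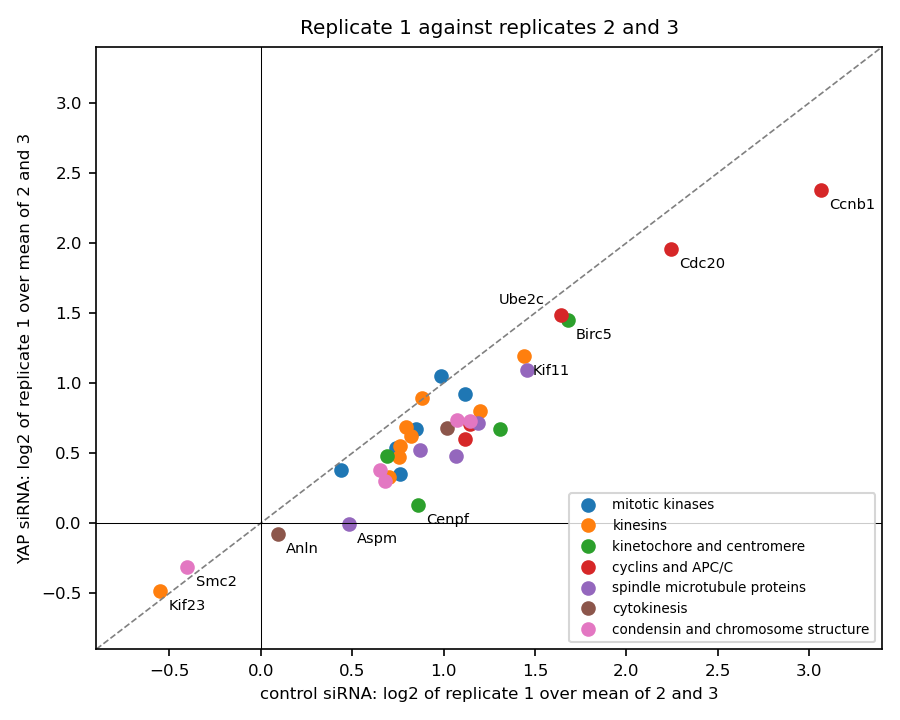
Log2 ratio of replicate 1 to the mean of replicates 2 and 3 in the controls (horizontal) and after YAP siRNA (vertical), one point per gene, coloured by role, with the dashed line marking equal ratios. Points follow the line, most of them below it, with Ccnb1 and Cdc20 at the top and Smc2 and Kif23 below 0.

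Lists of genes outside the 36 were also tested, most of them for the same machinery but with transport kinesins and a nuclear lamina gene among them. Of 161 such genes, listed by role with earlier results of these data known, 40 were higher and 5 lower with the block (backgrounds as above), with a median log2 fold change of 0.24. Unpaired limma called 0 of the 161 higher. Paired counts of higher genes were 85, 4 and 16 without replicate 1, 2 and 3 of both groups (22.0%, 1.06% and 4.01% of all genes). Calls named below therefore rest on the pairing as well. The spindle microtubule list had the most calls, 9 higher of 23, including the spindle genes Ckap2l and Numa1, which rose by 0.60 and 0.61 on the log2 scale. Kinetochore genes had 6 of 42, among them Nuf2, of the NDC80 complex, and Cenpq, up by 0.75 and 1.01 on the log2 scale. Condensin, cohesin and chromosome genes had 7 higher and 1 lower of 23, with the nuclear lamina gene Lmnb1 up by 1.16 and the condensin II gene Ncapg2 up by 0.65 on the log2 scale.

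Regulators of mitotic entry were mixed. Among kinase and phosphatase genes 4 of 16 were higher and 1 lower. Wee1, which encodes the kinase that inhibits CDK1, had a mean of 1132 ± 308 in the controls and 2068 ± 235 after YAP siRNA (normalized counts, SD, n = 3). It rose by 0.90 on the log2 scale (SE 0.120, paired limma adjusted p = 0.00342, unpaired 0.221). Mastl, whose kinase restrains the phosphatase that opposes CDK1, rose by 0.78 on the log2 scale. Cdk1 itself had a log2 fold change of 0.25 (95% interval 0.03 to 0.46, paired limma adjusted p = 0.102). Of genes for FOXM1, B-MYB and MuvB regulators 4 of 16 were higher. Foxm1 had 6019.7, 1997 and 1890.1 in the controls and 7439.8, 3429 and 3231 after YAP siRNA, higher in each pair and by 0.62 on the log2 scale (paired limma adjusted p = 0.0102, and 0.109 without replicate 2). Rbl1, the gene of the RB-family protein p107, rose by 0.54. Mybl2, the B-MYB gene, did not pass, at −0.013 on the log2 scale (95% interval −0.35 to 0.32).

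Of other kinesins 3 of 13 were higher and 2 lower, with Kif1b and Kif3b, motors of organelle and ciliary transport, up by 0.52 and 0.40 on the log2 scale. Cytokinesis genes had 4 higher and 1 lower of 10, with Arhgap11a and Cep55, a protein of abscission, up by 0.45 and 0.44. Of genes of the anaphase-promoting complex and chromatid separation 3 of 18 were higher, the securin gene Pttg1 by 0.55 and the inhibitor gene Fbxo5 by 0.49 on the log2 scale. The 5 lower genes, named after their values were seen, were Bora, an activator of Aurora A and PLK1, the transport kinesins Kif3a and Kif5b, Sept9 and Anp32e.

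S phase genes were high in replicate 1 as well, and few of them passed. In a list of 41 DNA replication genes, the median gene in control replicate 1 was 1.92 times the mean of replicates 2 and 3, and 1.88 times after YAP siRNA, against 1.84 and 1.56 times for the 36 genes. With the block 2 of 41 rose and 1 fell, where 8.32% of all genes tested were higher and 8.96% lower. The median log2 fold change of the 41 was 0.015. Rfc1, the large subunit of the clamp loader, had a mean of 3801 ± 469.6 in the controls and 7341 ± 568 after YAP siRNA (normalized counts, SD, n = 3). It rose by 0.95 on the log2 scale (SE 0.0997, paired limma adjusted p = 0.00164), while Ccne1, a G1 cyclin gene, decreased by 1.11 (log2). The difference between the S phase and mitotic lists was not tested.

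Genes that rose and genes that did not were found in each promoter class. Of the 22 genes with both motifs 14 rose, with a median log2 fold change of 0.42. Of the 4 with CHR letters alone (Kif20b, Kif15, Kif2c and Anln) 3 rose, of the 2 with CCAAT alone (Cenpe and Ccnb1) 1 rose, and of the 3 with neither (Kif18a, Birc5 and Nusap1) 2 rose. These counts are a description with few genes per class. Only TTTGAA and TTCGAA were searched for, so a gene without them is not shown to lack a CHR.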

How the data were processed

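Poly(A) RNA was made into directional, paired-end libraries, per the labels' protocols. The submitters' processing notes name TopHat2 2.0.9, HTSeq 0.6.1, DESeq 1.14.0 and mm9, with no order. Annotation, strand setting and filters: not given in the sources used here, so overlapping genes and near-identical copies are uncertain. The authors deposited 1 signal column per library, gene counts scaled by a size factor. Every library's values were whole multiples, within 0.01 reads, of what 1 read is worth (0.461 to 1.52), so reads were recovered.

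The unpaired test was limma 3.58.1 (R 4.3.3) on log2(value + 1), with a mean-variance trend, two-sided, and Benjamini-Hochberg adjustment over 12820 genes whose mean was 10 or more. The paired test added the replicate number as a block. Pairing rests on a check of the data, since the labels name no shared day or batch: deviations of same-numbered libraries from their group means correlated at 0.788, 0.705 and 0.532. Control 2 with YAP siRNA 3 gave 0.552 and control 3 with YAP siRNA 2 gave 0.516, so the check sets replicate 1 apart but does not settle the match of replicates 2 and 3. Libraries of a group differed beyond sampling noise (chi-square per degree of freedom 8.04 to 267). Recovered reads were also tested with edgeR 4.0.16 and DESeq2 1.42.0. The limma code was tested on simulated data whose means were set per replicate number. Pairing was thus built in, so that run cannot decide whether the real libraries are paired.

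All 36 genes may be named. Library values are given for the largest and smallest paired fold change in each role group, and for Ccnb1, Mki67, Plk1 and Aurkb. Other lists name up to 2 genes with the smallest paired p, with Foxm1, Mybl2 and Cdk1. The 36 genes and the lists were chosen with earlier results of these data known. Transcript lengths and shared 31-base sequences come from GENCODE M21, on another build. Single values of some lineage markers are not reported here.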

Additional observations from a re-analysis of the deposited data

How the results depend on the processing

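The 23 genes that rose stayed above 0 in each setting with the replicate block. Their count, 23 of 36 with the block, was 0 without a mean-variance trend, and 3 to 30 when 1 replicate number was left out (30, 3 and 11 without replicate 1, 2 and 3). Unpaired it was 0, but 1 in DESeq2, 0 to 3 when 1 library was left out, and 27 without replicate 1 of both groups, an alternative chosen after seeing the data. The cause was not tested. No setting called any of the 36 lower. Yap1 passed at −3.00 with the replicate block, −2.94 in DESeq2 and −3.32 without replicate 1 of both groups; it ranged from −3.28 to −2.79 when 1 library was left out, passing without replicate 1 of either group (−3.04 for the control), and with the block and no trend it did not pass at −3.00.

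Log2 fold changes that changed sign belonged to genes that did not pass. Leaving out 1 library gave −0.25 to 0.43 for Aurka, −0.11 to 0.57 for Aurkb, −0.059 to 0.23 for Plk1, −0.16 to 0.88 for Birc5, −0.22 to 1.60 for Ccnb1, −0.40 to 1.01 for Cdc20, −0.28 to 0.79 for Ube2c and −0.11 to 0.076 for Anln. Leaving out a replicate of both groups, with the block or without, gave −0.023 for Aurka (replicate 3), −0.013 for Ube2c (replicate 2), and 0.061 and 0.022 for Anln (replicates 1 and 2). Anln was at 0.027 with 1 total and 0.025 with quantile normalization, paired or not, and Anln with the block was at 0.0014 in edgeR. Fewer reads limit Ccnb1 most, at 181 in its lowest library.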
